A study of Mus musculus with 20 samples.

Results

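The cytosolic ribosome of mouse CD4 T cells is described here through the messenger RNAs of its proteins. Members were the rows of the gene count table whose symbol starts with Rps, Rpl or Rplp followed by a number, with at most a short paralog ending, so that the Rps6k kinases and rows ending in -ps stay out. The rule took 83 of 22068 rows. Of these, 76 are the genes of the common ribosomal proteins, called core genes below, with 30 for the small subunit, 43 for the large subunit and 3 for the stalk. The other 7 are additional paralogs or relatives: Rpl3l, Rpl10l, Rpl22l1, Rpl39l, Rps4y2, Rps27l and Rpl7l1. A filter on low counts kept 81 members for testing, the 76 core genes among them, and left out Rpl10l and Rpl3l. The symbols of some ribosome components, among them Rpsa, Fau, Gnb2l1 (also called Rack1) and the paralog Rpl36al, fall outside the rule.

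A cytosolic ribosome joins a small subunit, which reads the messenger RNA, to a large subunit, which forms the peptide bond and carries a stalk of Rplp0, Rplp1 and Rplp2 that recruits translation factors. Cells make these proteins in matched amounts, and their mRNAs typically start with a run of pyrimidines, the TOP motif, through which the kinase complex mTORC1 and the binding protein Larp1 control their translation and stability. Resting naive T cells are small and make little protein, and activation raises their ribosome output. RNA levels, which were measured here, do not show how much of each mRNA is translated.

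Each of 5 groups had 4 libraries of polyadenylated RNA from spleen and lymph node CD4 T cells of C57BL/6 mice aged 8 to 12 weeks. The mice carry a Foxp3-GFP reporter, which lights regulatory T cells (Treg). Naive cells were GFP-negative and low in CD44, and came from the 15% with the least surface CD5 (CD5lo) or the 15% with the most (CD5hi). CD5 dampens T cell receptor signals and its level follows the strength of self-recognition. Fresh naive cells were processed directly, and rested ones were first kept for 22 hours as dissociated cells in medium with 10 ng per mL of interleukin 7, away from the cells that present self-peptide. Treg were sorted as GFP-positive and were processed directly. Their cell type field also carries the words CD5lo naive, and the title and the gate were followed. The labels call the libraries biological replicates and describe pools of both sexes, with no number of mice.

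Libraries held 38211406 to 64477566 counts. The sum of 9 T cell markers was 4030 to 7076 CPM (counts relative to the library total, scaled by the trimmed mean of M-values) in all libraries. Foxp3 averaged 722 ± 37.97 CPM (SD, n = 4) in Treg and 22.4 to 28.6 CPM in the naive groups. All 8 fresh libraries carried Y-linked transcripts without Xist beyond 0.721 CPM. In each of the rested CD5lo, rested CD5hi and Treg groups replicate 3 alone did so, and replicates 1, 2 and 4 carried Xist, so sex differs between fresh cells and the other groups. Several libraries stand apart within their group in these genes. Treg library 4 was the lowest of its group in 76 of 76 core genes, and rested CD5hi library 4 in 75. Fresh CD5lo library 1 was the highest of its group in 73 core genes, Treg library 2 in 68, fresh CD5hi library 2 in 58 and rested CD5hi library 3 in 53.

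The start regions of the genes on which the results turn are shown to let the TOP run be seen. Each is a window of 50 bases, with 25 before the annotated start of transcription and 25 from it, from RefSeq on GRCm38.p6. The longest unbroken run of C and T in each window is in capitals. Windows of Rps27, Rplp2, Rpl28, Rpl7a and Rpl22l1 carry runs of 9, 10, 11, 21 and 10 bases that cover or adjoin the start. Windows of Rpl24 and Rpl22 have longest runs of 3 and 5 bases. The window of Rpl31, whose longest run ends before the start, is shown because this gene was among those that fell most in Treg, and that of Rps27l for comparison with Rps27. The windows lie at chr3:90213624-90213673 on the minus strand for Rps27, chr9:66946061-66946110 (plus) for the first start of Rps27l, chr7:141447626-141447675 (plus) for Rplp2, chr7:4792940-4792989 (plus) for Rpl28, and chr2:26910782-26910831 (plus) for Rpl7a. The others lie at chr3:28805483-28805532 (plus) for Rpl22l1, chr4:152324411-152324460 (plus) for the first start of Rpl22, chr16:55966250-55966299 (plus) for Rpl24 and chr1:39367826-39367875 (plus) for Rpl31.
Rps27: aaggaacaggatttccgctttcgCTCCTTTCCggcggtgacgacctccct
Rps27l: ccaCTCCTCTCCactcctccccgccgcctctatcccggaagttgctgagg
Rplp2: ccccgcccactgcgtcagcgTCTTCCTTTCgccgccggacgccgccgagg
Rpl28: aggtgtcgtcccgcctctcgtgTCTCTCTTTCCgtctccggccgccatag
Rpl7a: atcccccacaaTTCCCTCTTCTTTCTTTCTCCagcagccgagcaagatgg
Rpl22l1: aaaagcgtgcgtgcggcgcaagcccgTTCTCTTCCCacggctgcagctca
Rpl22: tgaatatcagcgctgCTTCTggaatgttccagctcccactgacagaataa
Rpl24: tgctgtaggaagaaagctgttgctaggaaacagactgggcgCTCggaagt
Rpl31: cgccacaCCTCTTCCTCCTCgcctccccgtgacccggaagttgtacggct

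Over 66 windows of the 56 core genes found in the RefSeq table, the median of the longest run was 7 bases, against 5 over 32851 windows of all genes. A run of at least 8 was present in 47% of the core windows and in 19.7% of all windows. The word CTTTCC, read on the sense strand in the same 50 bases, was present in 15.2% and 2.46%. It can overlap a pyrimidine run. In the full windows of 300 bases, CCGGAAGT on either strand, the core of an ETS factor motif, was present in 15.2% and 3.89%, and CACGTG, the motif of Myc and its relatives, in 12.1% and 7.15%. TATAA on the sense strand was present in 22.7% and 17.5%. A match is a description of these letters and not a site in use. The 30 core genes with a run of at least 8 and the 26 without had like medians of change in each comparison below, for example -0.34 and -0.38 (log2) in Treg against fresh CD5lo cells, and 0.12 and 0.12 on resting in CD5lo cells.

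The 83 genes together took 9.72 ± 0.335% (SD, n = 4) of all counts in fresh CD5lo cells and 9.35 ± 0.137% in fresh CD5hi cells. They took 9.98 ± 0.385% in rested CD5lo cells, 9.36 ± 1.02% in rested CD5hi cells and 8.00 ± 0.701% in Treg. In Treg the 4 libraries held 8.29, 8.49, 8.26 and 6.96%, all below the lowest fresh library, at 9.24%. The rested CD5hi libraries held 9.33, 9.65, 10.47 and 8.01%, so that 2 libraries of 1 group lay further apart than the means of Treg and fresh CD5lo cells. On the scaled CPM the sums averaged 96993, 92378, 106091, 96359 and 74401 in the same order of groups. The mean for Treg was thus 0.767 of that for fresh CD5lo cells, and that for rested CD5lo cells 1.09 of it. The genes of the mitochondrial ribosome took 0.204 to 0.213% of the counts on average in each group. In bulk samples a lower share of cells expressing a gene and less of its RNA per cell cannot be told apart, and a share of counts gives no amount of RNA per cell.

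**Figure D1:**
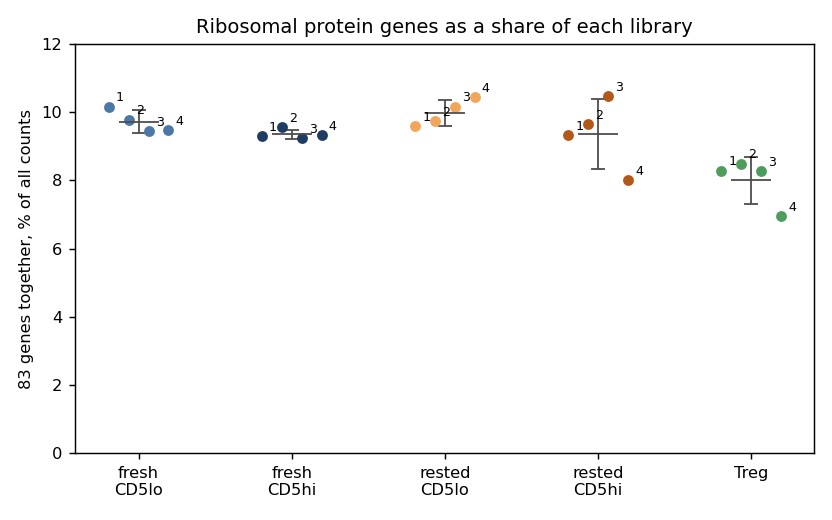
Share of all counts (%, y axis from 0) taken by the 83 ribosomal protein genes in each of the 20 libraries, by group; points carry the replicate number, and bars show mean and SD. The 4 Treg libraries lie between 6.96 and 8.49%, below the 8 fresh libraries, and the rested CD5hi libraries spread from 8.01 to 10.47%.

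Levels differed between the core genes. Rplp0, the stalk base, was highest with a mean of 3287 CPM over all libraries, followed by Rpl13a (2759 CPM) and Rpl4 (2415 CPM). Rpl10l, a testis paralog of Rpl10, was listed at 0, and Rpl3l, the striated muscle paralog of Rpl3, averaged 0.0423 CPM. Rpl39l, a paralog of Rpl39 known from testis, averaged 0.558 CPM. Per kilobase of exon of the reference annotation, Rplp1 was highest (3912 CPM per kb), followed by Rps27 (2906), Rps29 (2556), Rps6 (2500), Rpl13a (2438) and Rplp0 (2421). Exon lengths are unions over annotated transcripts, so they understate a level where long alternative transcripts are annotated.

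The small subunit genes took 0.797 ± 0.00124 (SD, n = 4) times the counts of the large subunit genes in fresh CD5lo cells and 0.792 ± 0.00389 times in fresh CD5hi cells. The ratio was 0.769 ± 0.00663 in rested CD5lo cells, 0.768 ± 0.00537 in rested CD5hi cells and 0.759 ± 0.00458 in Treg. The ratio was thus lower in Treg and in rested cells than in fresh cells by more than the SDs.

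The core genes varied together between libraries of a group. After removing group means, the first principal component over libraries took 78.6% of their variation (log2 CPM), and the median of the pairwise correlations between genes was 0.816, over 20 libraries that share their scaling. The median SD within groups was 0.123 on the log2 scale, against 0.0838 in 2261 other genes with at least 100 CPM. By group, the core genes had 0.0253 in fresh CD5hi cells and 0.0575 in fresh CD5lo cells. They had 0.0975, 0.200 and 0.142 in rested CD5lo, rested CD5hi and Treg cells. The other genes had 0.0523 and 0.0584, then 0.0829, 0.100 and 0.0730, in the same order of groups. The wider spread of the core genes thus lay in the rested and Treg groups and not in fresh cells. Rpl13a (SD 0.227), Rpl31 (0.226), Rps7 (0.213) and Rps14 (0.209) varied most, and Rpl7a (0.0713), Rpl6 (0.0732) and Rplp0 (0.0750) least.

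A split ran through the rested libraries. In rested CD5lo cells, libraries 3 and 4 were both above libraries 1 and 2 in 50 of 76 core genes and both below them in 13. Library 3 of rested CD5hi cells was the highest of its group in each of those 50 genes, and lay below libraries 1 and 2 in 12 of the 13. Rpl13a, a large subunit protein also known from interferon-induced translation control, was at 2651, 2750, 3726 and 3904 CPM in rested CD5lo libraries 1 to 4, and at 2512, 2755, 4202 and 2283 CPM in the rested CD5hi libraries. Rpl14 went the other way, with 1026, 1015, 819 and 862 CPM, then 928, 940, 742 and 751 CPM. Rested CD5lo library 4 carries Xist and library 3 Y-linked transcripts. In rested CD5hi cells library 3 is the only one with Y-linked transcripts. The part of sex in the split was not tested. The labels name no batch for the split. Of mRNAs outside the members, 19 with at most 1000 exon bases and at least 100 CPM deviated the same way, by medians of 0.11 and 0.11 (log2) in rested CD5lo libraries 3 and 4 and 0.19 in rested CD5hi library 3, against -0.13 in rested CD5hi library 4. Their part in the results below was not tested.

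**Figure D2:**
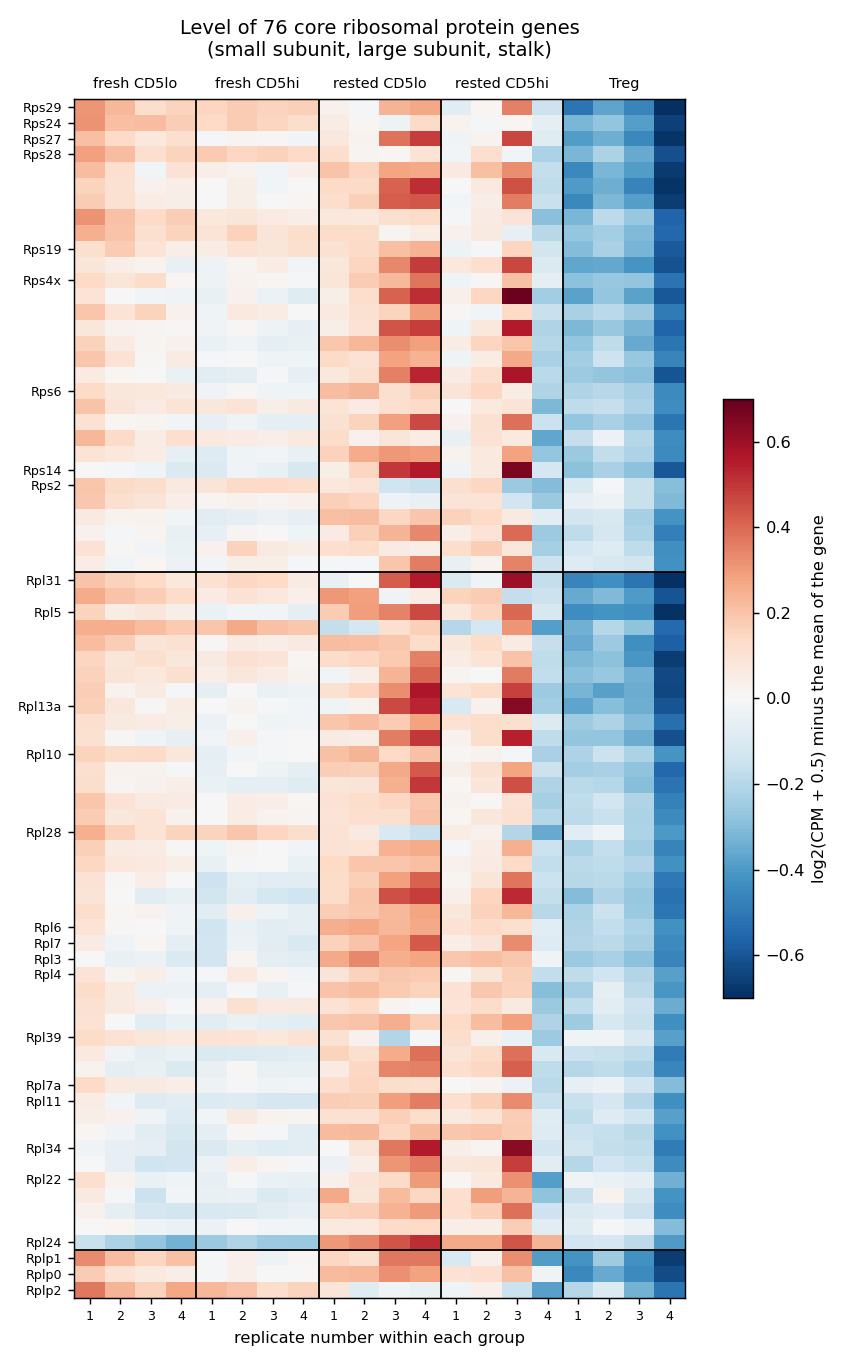
Level of the 76 core genes (rows, small subunit above, large subunit below it, stalk at the foot, each ordered by change in Treg, with some rows labelled) in 20 libraries (columns, replicates 1 to 4 of each group), as log2(CPM + 0.5) minus the mean of the gene over all libraries. Treg columns are low in nearly every row, with Treg library 4 lowest, and rested CD5lo libraries 3 and 4 share with rested CD5hi library 3 a pattern of high rows such as Rpl13a and low rows such as Rps2 and Rpl28.

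Ribosomal protein mRNAs were lower in Treg than in fresh naive cells, in both subunits and the stalk. Against fresh CD5lo cells, 66 of 81 tested members were lower and 3 higher (edgeR quasi-likelihood test, adjusted p under 0.05), where 29.4% of all 13309 genes tested were called lower and 29.2% higher, 58.5% in all. The median change was -0.34 (log2) over the members and -0.03 over all genes. Of the core genes, 65 of 76 fell and none rose, and all 4 Treg libraries lay below all 4 fresh CD5lo libraries in 69 of 76, where 28.4% of all genes did so. In the small subunit 28 of 30 genes fell, with a median of -0.39, in the large subunit 34 of 43 with a median of -0.31, and in the stalk 3 of 3. Against fresh CD5hi cells, 57 members were lower and 3 higher (26.6% and 27.5% of all genes, 54.2% in all), with a median of -0.26 against -0.02, and the Treg libraries lay below all fresh CD5hi libraries in 69 of 76 core genes (26.7% of all genes). Of the members called lower, 56 were so against both fresh groups. The other 11 and 20 core genes did not pass in the CD5lo and the CD5hi comparison.

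Rps29, a small zinc-binding protein of the small subunit, fell most among the core genes. It was at 1210, 1149, 1064 and 1087 CPM in fresh CD5lo libraries, 1082, 1106, 1088 and 1097 CPM in fresh CD5hi libraries and 686, 757, 708 and 561 CPM in Treg. All Treg libraries were below all fresh ones. The change was -0.73 ± 0.10 (log2 fold change ± SE) against CD5lo cells (edgeR, Benjamini-Hochberg adjusted p = 1.25e-06) and -0.69 ± 0.10 against CD5hi cells (adjusted p = 3.44e-06). Rps24, another small subunit protein, held 2216, 2061, 2068 and 2009 CPM in fresh CD5lo libraries and 1427, 1474, 1366 and 1134 CPM in Treg, again without overlap (-0.63 ± 0.07, and -0.55 ± 0.07 against CD5hi cells). Rps19, the gene most often mutated in Diamond-Blackfan anaemia, fell from 1152 ± 43.6 to 835 ± 87.9 CPM (-0.46 ± 0.07). Rps6, the substrate of the S6 kinases, fell from 2317 ± 51.6 to 1811 ± 143 CPM (-0.36 ± 0.07).

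In the stalk, Rplp0 was at 3667, 3472, 3397 and 3348 CPM in fresh CD5lo libraries, 3217, 3326, 3236 and 3228 CPM in fresh CD5hi libraries and 2370, 2539, 2378 and 2100 CPM in Treg. The Treg libraries lay apart from both fresh groups, by -0.56 ± 0.06 (edgeR adjusted p = 1.09e-07) and -0.47 ± 0.06 (adjusted p = 1.77e-06). Rplp1 fell by 0.66 and 0.43 and Rplp2 by 0.54 and 0.46 on the log2 scale. The call on Rplp1 against CD5hi cells was lost with sex as a term (adjusted p = 0.0643, the highest over its alternatives, which started at 0.000189).

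Among the large subunit genes, Rpl31, which sits by the exit of the peptide tunnel, was at 1070, 1046, 1027 and 981 CPM in fresh CD5lo libraries and 678, 694, 654 and 523 CPM in Treg, with no overlap (-0.69 ± 0.14; edgeR adjusted p = 0.000269). Rpl5, which forms the 5S particle with Rpl11, fell from 2492 ± 94.2 to 1675 ± 147 CPM (-0.57 ± 0.09), and Rpl11 was at 1009 ± 45.0 and 885 ± 82.2 CPM (-0.19 ± 0.08, adjusted p = 0.0526). Rpl3, which lines the catalytic centre, Rpl4 and Rpl10, which matures the late subunit, fell by 0.26, 0.26 and 0.37. Rpl24 did not pass: fresh CD5lo cells held 474 ± 24.3 CPM, fresh CD5hi cells 473 ± 7.87 CPM and Treg 487 ± 41.9 CPM (0.04 ± 0.06 against each). Rpl22, an RNA-binding protein needed for alpha-beta T cell development, was at 400 ± 21.2, 384 ± 5.58 and 365 ± 35.4 CPM and did not pass the test (-0.13 ± 0.10 and -0.07 ± 0.10).

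Without Treg library 4 the median was -0.26 against CD5lo cells, with 51 members called, and -0.18 against CD5hi cells, with 43. Without both Treg library 4 and fresh CD5lo library 1, an alternative added after seeing the data, 46 members were lower and 3 higher against fresh CD5lo cells, with a median of -0.25. With library totals in place of scaled totals, which moved the median of all genes to 0.07 in both comparisons, 50 and 38 members were lower and 4 and 3 higher. With sex as a term, 48 and 38 members were lower and 4 and 2 higher. That term is shared by all groups, so the Y-linked rested libraries also set it. No value within 1 sex could be tested, since a single Treg library is Y-linked and no fresh library carries Xist. Markers of B cells (6 genes) summed to 31.5 to 33.8 CPM in Treg and at most 6.02 CPM in fresh cells, and the 3 proliferation markers to 75.95 to 108 CPM against 13.2 to 30.9. The 9 T cell markers summed to 4030 to 4267 CPM in Treg and 6118 to 7076 CPM in fresh cells. Within this sum, Tcf7 averaged 2168, 2000 and 516 CPM in fresh CD5lo, fresh CD5hi and Treg cells, and Lef1 373, 433 and 123 CPM. Cd4 averaged 1109, 922 and 706 CPM, Cd3e 363, 351 and 322 CPM and Cd28 304, 363 and 300 CPM. Cd5 averaged 148, 982 and 606 CPM, so that Treg lay between the 2 fresh groups. Markers of macrophages and dendritic cells (7 genes) summed to 9.61 to 12.5 and 15.6 to 22.0 CPM. The part of these cells in the fall was not tested. The 19 short mRNAs outside the members had medians of 0.03 and 0.05 in the 2 comparisons, with 7 of 19 higher in each and 5 and 3 lower, and deviated by -0.11 in Treg library 4 within its group. The 2060 longer mRNAs outside the members with at least 100 CPM had medians of -0.11 in both, with 931 lower and 421 higher against CD5lo cells and 914 and 394 against CD5hi cells, so abundant mRNAs leaned lower in Treg outside the members too.

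**Figure D3:**
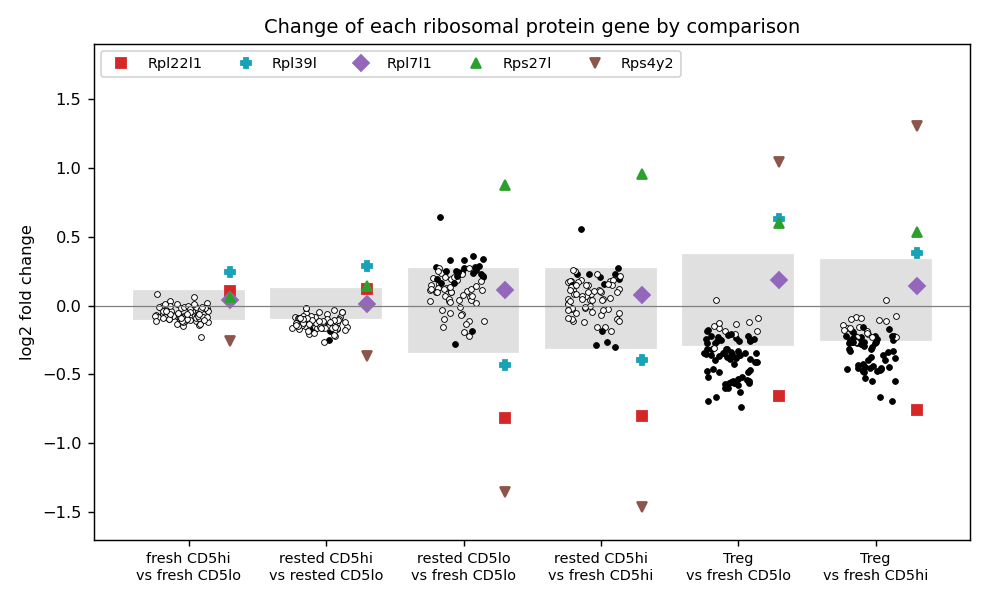
Log2 fold change (y axis) of each tested member in 6 comparisons; circles are core genes, filled where the adjusted p is under 0.05, coloured marks are the 5 tested paralogs, and grey boxes span the interquartile range of all 13309 genes tested. In both Treg comparisons the core genes lie between -0.73 and 0.04, while Rps27l, Rps4y2 and Rpl7l1 lie above 0. The low counts of Rps4y2 and Rpl39l make their positions uncertain.

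Resting moved the members by less and in both directions. In CD5lo cells, 24 of 81 members rose and 4 fell, where 26.9% of all genes rose and 27.3% fell (54.3% called). The share of members that rose was thus near that of all genes, and the share that fell below it. Their median was 0.13 against -0.01 for all genes. In the large subunit 16 of 43 core genes rose and none fell (median 0.18), in the small subunit 6 of 30 rose and Rps24 fell (0.12). In CD5hi cells 10 members rose and 6 fell (26.2% and 26.2% of all genes, 52.4% called), with a median of 0.07 against 0.00. The 10 that rose, among them Rpl3, Rpl6, Rpl7, Rpl11, Rpl24, Rpl32, Rpl37, Rpl38 and Rps27l, were among the 24 in CD5lo cells too. In CD5hi cells the call was lost in 14 of 18 alternatives for Rpl7, in 8 for Rpl6 and in 5 for Rpl11. Rpl22l1, Rplp2 and Rps4y2 fell in both comparisons, 3 of 4 falls in CD5lo cells and 3 of 6 in CD5hi cells.

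These counts rest on the scaling and on single libraries. With library totals in place of scaled totals, which put the median of all genes at -0.10 and -0.05, 9 members were higher and 11 lower in CD5lo cells, and 3 higher and 10 lower in CD5hi cells. Rises thus no longer prevailed in CD5lo cells, and falls prevailed in CD5hi cells. Relative to the median of all genes the members still stood higher by either scaling. In CD5lo cells the number called was 12 without rested library 4, 13 without rested library 3, and 15, 18 and 14 without fresh library 2, 3 or 4. In CD5hi cells it was 31 without rested library 4 (27 higher), and 10 without rested library 2 or 3 (3 higher each). It was 9 without fresh library 1 or 2, 7 without fresh library 3 and 10 without fresh library 4. The median in CD5hi cells was 0.13 without rested library 4 and -0.02 without rested library 3. Without both rested CD5hi libraries 3 and 4, an alternative added after seeing the data, 10 members were higher and 4 lower. With sex as a term 45 rose and 6 fell in CD5lo cells and 26 rose and 5 fell in CD5hi cells. That term is shared by all groups and rests on the single Y-linked library of each rested group and of Treg. Markers of macrophages and dendritic cells summed to 15.6 to 22.0 CPM in fresh and 5.49 to 9.03 CPM in rested cells, the 5 erythroid and platelet markers to 17.1 to 58.9 and 0.330 to 10.2 CPM, and the T cell markers to 6118 to 7076 and 4794 to 5065 CPM. The part of these in the changes was not tested.

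Rpl24, a protein of the bridge between the subunits, rose most among the core genes. It was at 504, 482, 465 and 447 CPM in fresh CD5lo libraries and 694, 711, 762 and 803 CPM after resting, and at 468, 485, 470 and 468 CPM in fresh CD5hi libraries and 675, 674, 762 and 663 CPM after resting. Every rested library lay above every fresh one. The changes were 0.65 ± 0.06 (edgeR adjusted p = 2.73e-08) and 0.55 ± 0.06 (adjusted p = 2.81e-07), and the call held in 17 of 17 and 18 of 18 alternatives. Its window above holds no pyrimidine run longer than 3 bases.

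Rplp2 went down, from 763, 698, 661 and 713 CPM to 627, 557, 581 and 570 CPM in CD5lo libraries and from 694, 678, 644 and 660 CPM to 579, 606, 533 and 454 CPM in CD5hi libraries, with no overlap in either. The changes were -0.28 ± 0.08 (edgeR adjusted p = 0.00733) and -0.30 ± 0.08 (adjusted p = 0.0044), and the latter was lost without both rested CD5hi libraries 3 and 4 (adjusted p = 0.0842; 0.00075 at the lowest over the alternatives). Its stalk partner Rplp1 did not pass the test (0.03 ± 0.11 and -0.01 ± 0.11). The stalk base Rplp0 rose in CD5lo cells (0.16 ± 0.06, adjusted p = 0.0327), a call lost in 7 of 17 alternatives, and was at 0.10 ± 0.06 in CD5hi cells. Rpl28 fell in CD5hi cells (-0.27 ± 0.09), a call also lost without both rested CD5hi libraries 3 and 4 (edgeR adjusted p = 0.244; 0.000658 at the lowest), and was at -0.19 ± 0.09 in CD5lo cells. Rps28 fell in CD5hi cells (-0.19 ± 0.07, lost in 8 of 18 alternatives), as did Rpl12, a stalk-base neighbour, by 0.29 with overlapping libraries. Rps14 (0.36 ± 0.13) and Rpl34 (0.34 ± 0.13) rose in CD5lo cells, and lost that call in 6 and 7 of 17 alternatives. The row Rpl34-ps1 stood at 99.1 to 99.7% of Rpl34 in each library, and whether the same reads were counted in both is not known, so Rpl34 is uncertain.

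**Figure D4:**
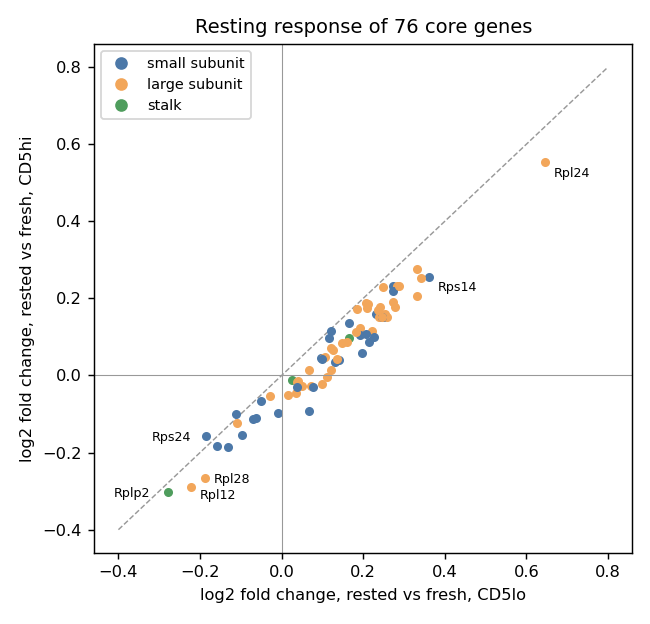
Log2 fold change on resting (rested against fresh) of the 76 core genes in CD5lo cells (x axis) and CD5hi cells (y axis), coloured by subunit, with the line of equal change dashed. The points run along the line and mostly just under it, with Rpl24 at the upper end and Rplp2, Rpl12 and Rpl28 at the lower end.

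The order of the genes was alike in the CD5lo and CD5hi resting responses. Over the 76 core genes Pearson's r between the 2 sets of changes was 0.973 and Spearman's rho 0.959, a description over genes that share libraries and are not independent. The comparisons use different libraries, but those of CD5lo and CD5hi cells with the same number deviate together over all genes. No member passed the test of the difference between the 2 responses (edgeR interaction, 0 of 81 at an adjusted p under 0.05, 0 at an unadjusted p under 0.05 and 0 by DESeq2, with 0.451% of all genes called). The members' median in it was -0.07.

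Of the additional paralogs, Rps27l, Rpl22l1 and Rps4y2, the last at low counts, passed the test on resting and in Treg. Their change was not tested against that of their partners. Rps27l, a paralog of Rps27 and a known target of p53, was at 17.4, 15.3, 16.2 and 14.4 CPM in fresh CD5lo libraries and 21.2, 26.8, 33.3 and 34.9 CPM after resting, and at 17.2, 15.4, 17.2 and 16.5 CPM in fresh CD5hi libraries and 28.3, 28.8, 44.5 and 26.9 CPM after resting. Treg held 25.3, 23.4, 24.9 and 22.4 CPM. All rested and Treg libraries lay above all fresh ones. It rose by 0.88 ± 0.14 (edgeR adjusted p = 2.84e-05) and 0.96 ± 0.14 (adjusted p = 1.06e-05) on resting, and was higher in Treg than in fresh CD5lo and CD5hi cells by 0.60 ± 0.14 and 0.54 ± 0.14. Rps27, with levels of 1445 ± 57.6 CPM in fresh CD5lo, 1570 ± 248 in rested CD5lo and 955 ± 97.0 CPM in Treg cells, did not pass the test on resting (0.12 ± 0.11 in both) and fell in Treg (-0.60 ± 0.11). Per 1000 counts of Rps27, those of Rps27l thus numbered 10.95 ± 0.733 (CD5lo) and 12.6 ± 0.749 (CD5hi) when fresh and 18.4 ± 2.13 and 22.3 ± 1.39 when rested, and 25.3 ± 2.06 in Treg.

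Rpl22l1, the paralog that Rpl22 is known to repress, ran opposite to Rps27l on resting. It was at 102, 103, 97.3 and 99.96 CPM in fresh CD5lo libraries and 52.0, 52.3, 58.3 and 65.1 CPM after resting, and at 109, 114, 108 and 101 CPM in fresh CD5hi libraries and 60.3, 61.2, 79.8 and 46.4 CPM after resting. Treg held 68.1, 66.4, 65.7 and 55.1 CPM. The rested and Treg libraries all lay below the fresh ones. The falls on resting were -0.82 ± 0.11 (edgeR adjusted p = 2.41e-06) and -0.80 ± 0.11 (adjusted p = 3.26e-06), and those in Treg -0.65 ± 0.11 and -0.76 ± 0.11. Rpl22 itself did not pass in any of these 4 comparisons, with changes of 0.13, 0.07, -0.13 and -0.07. Per 1000 counts of Rpl22, those of Rpl22l1 numbered 251 ± 10.02 (CD5lo) and 281 ± 10.9 (CD5hi) when fresh and 130 ± 4.68 and 154 ± 5.99 when rested, and 175 ± 1.13 in Treg. The narrow range in Treg includes library 4, in which both genes were low.

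Rpl7l1, a relative of Rpl7 known from ribosome assembly, averaged 73.8 ± 4.38 (CD5lo) and 76.04 ± 5.57 CPM (CD5hi) when fresh, 79.7 ± 3.67 and 80.4 ± 3.67 CPM when rested, and 83.8 ± 2.10 CPM in Treg. It was higher in Treg by 0.18 ± 0.06 and 0.14 ± 0.06 (edgeR adjusted p = 0.00806 and 0.0419), and the second call, with overlapping libraries, was lost in 5 of 17 alternatives. Rpl7 fell in Treg against CD5lo cells (-0.26 ± 0.08), a call lost in 4 of 18 alternatives, among them those without Treg library 4. Rps4y2, listed in the reference under the name Rps4l, is a second gene for the Rps4x protein, and held 1.05 ± 0.138 and 0.882 ± 0.233 CPM in fresh cells, 0.418 ± 0.220 and 0.319 ± 0.0588 in rested cells and 2.17 ± 0.548 in Treg. It fell on resting (-1.35 ± 0.32 and -1.46 ± 0.34) and was higher in Treg (1.04 ± 0.28 and 1.30 ± 0.29), with 0.142 to 0.448 counts per 1000 of Rps4x on average in the naive groups, whose reads it could share. Rpl39l did not pass in any comparison, while its partner Rpl39 fell in Treg (-0.22 ± 0.08 against each group), calls lost in 5 of 18 and 3 of 17 alternatives, among them library totals and without Treg library 4. Rps4x fell in Treg (-0.42 ± 0.07 and -0.33 ± 0.07).

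**Figure D5:**
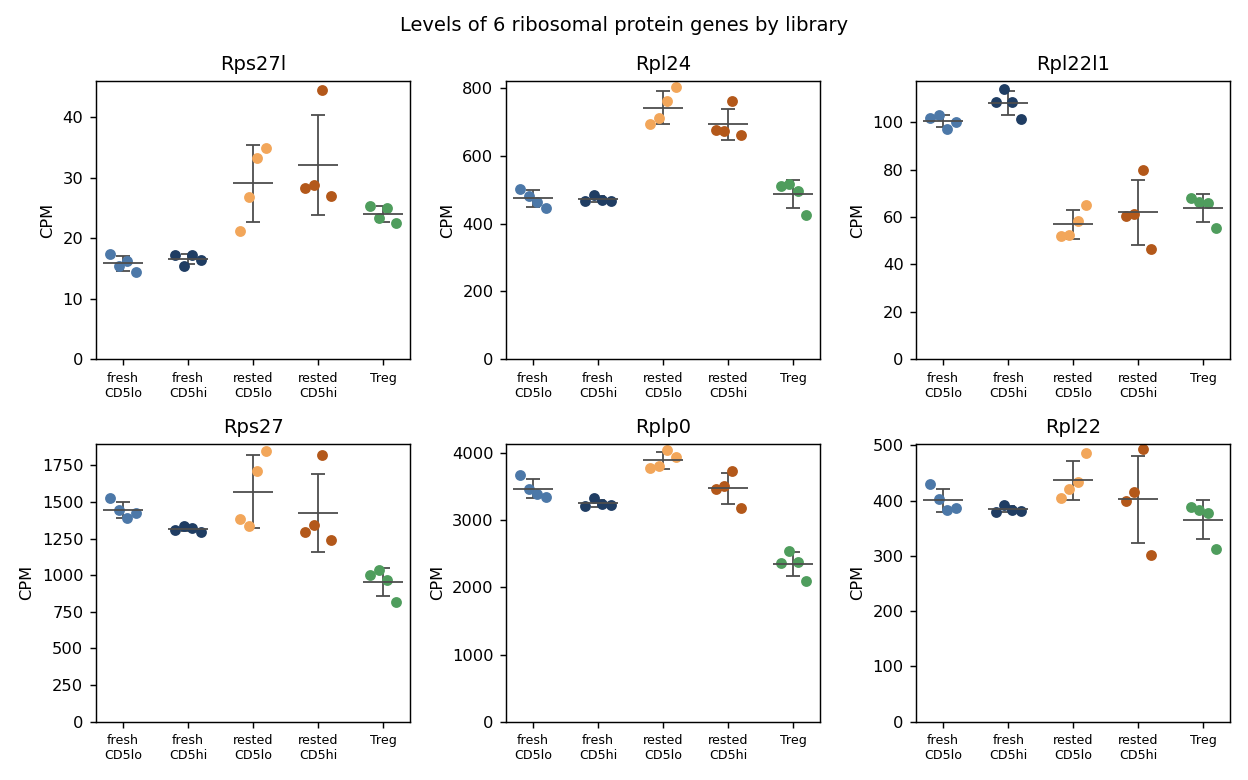
Level (CPM, y axes from 0) of Rps27l, Rpl24, Rpl22l1, Rps27, Rplp0 and Rpl22 in the 20 libraries by group, with mean and SD bars. Rps27l and Rpl24 are higher in all rested than in all fresh libraries, Rpl22l1 is lower in all rested and Treg libraries than in fresh ones, and Rps27 and Rplp0 are lowest in Treg.

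CD5hi and CD5lo cells differed by small changes in these genes, mostly toward lower levels in CD5hi cells. In fresh cells no member passed in the main fit, which spans all groups and does not pair libraries (edgeR, 0 of 81 called). In that fit 11.5% of all genes were called, 6.86% higher and 4.59% lower. Of the members, 2 had an unadjusted p under 0.05, and DESeq2 called 0. The median was -0.07 against -0.01 for all genes, with 69 of 76 core genes on the negative side. In 23 core genes all CD5hi libraries lay below all CD5lo libraries, where 9.4% of all genes did so. With the fresh groups alone some members were called, all lower in CD5hi cells, among them Rplp1, Rpl10, Rpl5, Rps6 and Rps27. The share of all genes called with those groups alone is not reported here. In rested cells the main fit called Rpl10, Rpl6 and Rpl7a lower in CD5hi cells and none higher. In that fit 8.2% of all genes passed, 4.74% higher and 3.46% lower. In 8 core genes all rested CD5hi libraries lay below all rested CD5lo libraries and in none above, where 5.02% and 5.24% of all genes did so. All 76 core genes had a negative change there, with a median of -0.13 over the members against 0.00. The changes of the core genes in the 2 states had a Pearson's r of 0.745 and a Spearman's rho of 0.734, a description as above. The 5 markers of CD8 and NK cells summed to 30.4 to 35.8 CPM in fresh CD5lo and 8.55 to 9.34 CPM in fresh CD5hi cells. Nearly all of this was Cd8b1 (31.1 and 7.71 CPM), with each of the other 4 markers under 1 CPM on average, and its part was not tested.

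Rpl10 was at 1377, 1409, 1315 and 1377 CPM in rested CD5lo libraries and 1202, 1213, 1180 and 1018 CPM in rested CD5hi libraries, with no overlap and a change of -0.25 ± 0.06 (edgeR adjusted p = 0.00929). Over its alternatives that p ran from 0.000426 to 0.088, and the call was lost with the compared groups alone. The fresh libraries held 1331, 1304, 1310 and 1262 CPM against 1143, 1179, 1189 and 1194 CPM, which do not overlap either, and the change there did not pass (-0.15 ± 0.06, adjusted p = 0.134). Rpl6 (-0.19 ± 0.06, adjusted p = 0.0485) and Rpl7a (-0.18 ± 0.06, adjusted p = 0.0489) stood at the threshold and each lost the call in 13 of 19 alternatives. In the fit over all groups Rplp1 had larger changes with wider errors, of -0.23 ± 0.11 in fresh and -0.27 ± 0.11 in rested cells. Its fresh libraries held 2408, 2227, 2129 and 2208 CPM (CD5lo) against 1894, 1962, 1870 and 1933 CPM (CD5hi), with no overlap. With the fresh groups alone, Rplp1 (-0.22, edgeR adjusted p = 0.000965) and Rpl10 (-0.14, adjusted p = 0.00501) were both called lower in CD5hi cells.

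Over all genes, libraries of CD5lo and CD5hi cells with the same number deviated together within a state. Over the core genes alone this did not hold for each number: the correlation of deviations was 0.35, -0.10, 0.64 and 0.01 for fresh libraries 1 to 4 and 0.91, 0.74, 0.89 and -0.27 for rested ones, and 0.90 between rested CD5lo library 4 and rested CD5hi library 3. With the number as a block within states, Rpl10 (-0.15, adjusted p = 0.0319) and Rpl14 (-0.12, adjusted p = 0.0222) were lower in fresh CD5hi cells, and 17 members were lower in rested CD5hi cells, with none higher in either. These 17 included Rplp0, Rplp1, Rps6, Rps19, Rpl3 and Rps4x, and Rpl14 was named after its values were seen. The share of all genes called under the block is not reported here, so these counts are not compared with it. In the fit without the block, the rested count was 24 without rested CD5hi library 3 and 1 without any other single library of the 2 groups, and 4 without both rested CD5hi libraries 3 and 4, which was added after seeing the data.

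Some members are grouped by known functions beyond the ribosome. Of 8 proteins known to bind Mdm2, the ligase that degrades p53 (Rpl5, Rpl11, Rpl23, Rpl26, Rps3, Rps7, Rps27 and Rps27l), 6 fell and Rps27l rose in Treg against CD5lo cells, with a median of -0.40. On resting 4 rose in CD5lo cells and 2 in CD5hi cells and none fell (medians 0.25 and 0.18), where 26.9% and 26.2% of all genes rose, so that the count in CD5hi cells is near the share of all genes. Of 18 genes known from Diamond-Blackfan anaemia, 15 fell and none rose in Treg against CD5lo cells (median -0.44), where 29.4% of all genes fell and 29.2% rose. On resting 5 rose and 1 fell in CD5lo cells and 1 rose and 1 fell in CD5hi cells. Of all genes, 26.9% and 26.2% rose and 27.3% and 26.2% fell there. The 5 rises in CD5lo cells are thus near the share of all genes, and the other counts on resting below it. The medians over all 81 tested members were -0.34 in Treg against CD5lo cells and 0.13 and 0.07 on resting, as given above.

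The ribosome components outside the rule moved with the core genes in Treg: 5 of 5 fell against CD5lo cells and 4 of 5 against CD5hi cells, where 29.4% and 26.6% of all genes fell. Gnb2l1, the scaffold of the small subunit head, fell from 1986 ± 71.0 to 1543 ± 114 CPM (-0.36 ± 0.08) and Rpl36al by 0.36. Rpsa, the laminin receptor protein of the small subunit, fell on resting in CD5hi cells (-0.34 ± 0.08). Of 25 translation factors and other mRNAs known or reported to carry a TOP motif, 9 fell and 2 rose in Treg against CD5lo cells (median -0.07), where 29.4% and 29.2% of all genes did so. On resting 17 rose and 2 fell in CD5lo cells (median 0.21), and 13 and 3 in CD5hi cells (0.19). Of all genes, 26.9% and 26.2% rose and 27.3% and 26.2% fell on resting. Eif3e, a subunit of initiation factor 3, rose on resting from 320 ± 11.3 to 511 ± 84.7 CPM in CD5lo cells (0.68 ± 0.12) and Npm1, the nucleolar chaperone nucleophosmin, from 643 ± 16.2 to 950 ± 104 CPM (0.56 ± 0.08). Vim, an intermediate filament gene, fell there by 1.26 and was higher in Treg by 0.82 ± 0.09, and Tpt1, a growth-related protein, fell in Treg by 0.61.

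Of 18 genes that control the translation of these mRNAs, 10 rose and 4 fell on resting in CD5lo cells, and 10 and 3 in CD5hi cells, where 26.9% and 26.2% of all genes rose and 27.3% and 26.2% fell. Myc, the transcription factor that drives ribosomal protein genes, rose from 87.6 ± 11.4 to 166 ± 6.85 CPM in CD5lo cells (0.92 ± 0.08) and from 90.5 ± 8.75 to 185 ± 5.71 CPM in CD5hi cells (1.03 ± 0.08), and was higher in Treg, at 113 ± 5.63 CPM, by 0.36 ± 0.08 and 0.32 ± 0.08. Eif4ebp1, which holds back initiation factor 4E, and Deptor, an inhibitor of mTOR, rose in CD5hi cells on resting by 1.22 ± 0.17 and 1.21 ± 0.28, from levels of 2.93 and 0.424 CPM. Rps6kb2, an S6 kinase gene, fell on resting in CD5lo cells by 0.78. In Treg against CD5lo cells 2 of the 18 rose and 7 fell, where 29.2% of all genes rose and 29.4% fell.

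Of 10 chaperones of single ribosomal proteins and late assembly factors, 8 fell in Treg against CD5lo cells and none rose (median -0.34). Against CD5hi cells 8 fell and Sbds rose. Of all genes, 29.4% and 26.6% fell in these Treg comparisons. On resting 4 rose and 5 fell in CD5lo cells and 4 rose and 4 fell in CD5hi cells. Of all genes, 26.9% and 26.2% rose and 27.3% and 26.2% fell on resting. Ltv1, an assembly factor of the small subunit, fell from 42.6 ± 2.94 to 27.8 ± 2.55 CPM on resting in CD5lo cells (-0.62 ± 0.09) and by 0.52 in Treg against CD5lo cells. Sbds, which frees the large subunit from Eif6, rose on resting in CD5hi cells by 0.42 ± 0.04, and Aamp by 0.41 ± 0.06 in CD5lo cells. Grwd1, the chaperone of Rpl3, fell in Treg by 0.52.

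Of 76 tested genes of the mitochondrial ribosome, 18 fell and 6 rose in Treg against CD5lo cells (median -0.08) and 11 fell and 5 rose against CD5hi cells (-0.07). Of all genes, 29.4% and 26.6% fell and 29.2% and 27.5% rose in these comparisons, so that each of these counts is below the share of all genes. The difference between the 2 ribosomes was not tested. Mrps6 rose from 10.97 ± 1.63 to 24.6 ± 1.92 CPM (1.17 ± 0.12) and Mrpl52 by 0.78 ± 0.10, while Mrps5 fell by 0.83. Mrpl20 rose on resting in CD5hi cells by 0.72 ± 0.14. On resting 19 rose and 15 fell in CD5lo cells and 21 and 13 in CD5hi cells, of 76, where between 26.2% and 27.3% of all genes did so in each direction, so that the rises are near the share of all genes and the falls below it. The rows Rplp2-ps1 and Rps19-ps3 moved with Rplp2 and Rps19 in Treg (-0.53 ± 0.07 and -0.55 ± 0.10 against CD5lo cells) and held 50.0 to 59.6% and 1.29 to 1.87% of their counts.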

How the data were processed

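Per the file headers and the submitters' processing notes, the deposited table holds read counts by gene symbol for 20 libraries of paired reads of 50 bases. The notes name TopHat2 2.0.11, featureCounts 1.4.5, Subread, edgeR and the build mm9. The annotation, the strand setting and the treatment of reads with several matches are each not given in sources used here, so reads shared with pseudogenes, paralogs or antisense genes cannot be separated. A deposited CPM table was not used.

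The test was edgeR's quasi-likelihood F-test (edgeR 4.0.16, R 4.3.3) with TMM scaling, the default expression filter and 1 factor of 5 levels (15 residual degrees of freedom). It left 13309 genes, over which p-values got a Benjamini-Hochberg adjustment, with calls under 0.05. The SE is the change over the square root of F. CPM use library totals (38211406 to 64477566 counts) times the TMM factor, and counting error is small against the spread between libraries for all but the lowest genes. No 2 libraries agreed within sampling noise. The script was tested on simulated data.

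Same-numbered CD5lo and CD5hi libraries deviated together over all genes (correlations 0.317 to 0.570 when fresh and 0.287 to 0.752 when rested). An alternative fit therefore took the numbers to pair them within a state, from the data and not the labels. The main fit, which gave the calls unless stated, does not use this pairing. Some rested libraries of unlike number did so too: 0.512 (CD5lo 1 with CD5hi 2), 0.481 (CD5lo 2 with CD5hi 1) and 0.352 (CD5lo 4 with CD5hi 3). The other unlike rested pairs were negative. The pairing of rested libraries is thus uncertain. Fresh libraries did not pair with rested or Treg libraries (-0.193 to 0.133). P-values measure the spread between these libraries.

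The members and lists were chosen with earlier results of these data known. Named genes were, per comparison, up to 4 rises and 4 falls among called members without overlap and with at least 10 CPM, the paralogs, 7 set members (Rplp0, Rplp1, Rplp2, Rpl5, Rpl11, Rps6 and Rps19), the extremes of level, and up to 4 genes of each other list. Others were named after their values were seen. Results of some genes are not reported here. Alternatives were DESeq2 1.42.0, other scalings and filters, the replicate block, sex as a term, the compared groups alone and each library left out.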

Additional observations from a re-analysis of the deposited data

Results flagged for a closer look

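Each of 165 sets of 4 libraries was 1 gene, or the sum of all members, in 1 group. In 14 sets the gap of 1 library to the nearest other, over the whole range, passed the 95% value of Dixon's test for 4 samples. Chance flags about 1 in 20 such sets. The sets are not independent, since the genes vary together between libraries.

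Treg library 4 was the lowest in 5 of the flagged sets. It held 313 CPM of Rpl22 (377 to 389 in the others), 455 CPM of Rpl34 (567 to 586), 1454 CPM of Rpl5 (1739 to 1759), 1547 CPM of Rps4x (1810 to 1840) and 1599 CPM of Rps6 (1856 to 1904). It was the highest in Rpl3l, at 0.128 CPM against 0 to 0.0170, which are a few counts.

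Rested CD5hi library 4 was the lowest in Rpl10 (1018 CPM against 1180 to 1213), Rpl3 (1869 against 2178 to 2208) and Rpl6 (1332 against 1505 to 1540). Rested CD5hi library 3 was the highest in Rpl24 (762 CPM against 663 to 675), Rpl31 (1412 against 831 to 913) and Rps27l (44.5 against 26.9 to 28.8). Fresh CD5hi library 2 was the highest in Rpl24 (485 CPM against 468 to 470) and Rps6 (2191 against 2133 to 2141).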

How the results depend on the processing

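With the replicate number as a block within states, 2 members were called in fresh and 17 in rested CD5hi against CD5lo cells (0 and 3 in the fit without it). The interaction stayed at 0, and a block of the number over all groups moved no count of calls by over 1.5 times. With the compared groups alone, 11 members were called in fresh CD5hi against CD5lo cells, all lower, and 0 in rested ones. On resting, 44 were called so in CD5lo cells (28 with all groups) and 9 in CD5hi cells (16). With sex as a term, 51 and 31 were called on resting in CD5lo and CD5hi cells. In rested CD5hi against CD5lo cells 1 was called each with RLE scaling, library totals, no filter and a filter of 1 CPM. Leaving out 1 library in turn gave 1 to 24 calls there, 12 to 36 on resting in CD5lo cells and 7 to 31 in CD5hi cells. DESeq2 called 0, 3, 29, 18, 67 and 56 members in the 6 comparisons (0, 3, 28, 16, 69 and 60 with edgeR). The counts for Treg moved by no more than 1.5 times under the alternatives run (51 to 69 and 43 to 58 without 1 library). The summed level in rested over fresh CD5lo cells was 1.09 on scaled CPM, and 1.03 both as a share of all counts and without the highest member. No named gene reversed a call under the alternatives run. Shares of all genes called under these alternatives are not reported here, so these counts show only how calls on the members moved. The causes were not tested.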
